A study of Mus musculus with 8 samples.

Results

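Otx2 and 8 other genes were examined in an RNA-seq study of the dioxygenase TET1. They were listed as genes induced when mouse embryonic stem cells (mESCs) leave naive pluripotency, and their induction was not tested here. The 9 genes, Otx2, Pou3f1, Sall2, Sox3, Pim2, Nes, Tcf15, Foxd3 and Grhl2, were chosen by name, with the genotype difference of the study's genes already known, and each of them was found among the 19429 genes of the deposited table. The cells were of the mESC line LF2, grown with leukemia inhibitory factor (LIF) and 10% serum, and carried a FLAG tag at the C-terminus of TET1, with a fluorescent protein encoded behind it. WT lines 2 and 5 had wild-type TET1, and lines 7 and 8 had the D2018A mutation, which weakens binding of TET1 to the O-GlcNAc transferase OGT. Each line grew from a single edited cell, and its RNA was sequenced in 2 technical replicates, so that WT and D2018A have 4 libraries each. The study describes a deletion away from the edited site in WT cells that D2018A cells lack.

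Naive pluripotency is a state found in the embryo before implantation. Cultured mESCs keep it as long as LIF and related signals hold the naive transcription factors active. On the way to lineage choice, cells pass through a formative state in which OTX2 moves the pluripotency factor OCT4 to new enhancers and other factors of the epiblast come up. TET1 has a CXXC zinc finger that prefers DNA rich in CpG, the dinucleotide on which it oxidises 5-methylcytosine, so the CpG content of promoters is described below with the levels.

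The level of a gene was its mean normalised count, that is, its reads after scaling of every library for depth, averaged by the authors over all libraries in their fit. It is a single value per gene, so it joins WT and D2018A, and the genotypes were not compared here. The smallest means fell on 12 steps, each left by genes with a single read in 1 library, whereas 8 libraries are described. The mean therefore covers 4 libraries more than the labels list, and which cells these came from was not tested. By these steps the relative depth of the libraries, their size factor, ranged from 0.726 to 1.47, and the means of all genes summed to 10937569. Because the mean hides the spread between lines, the error given with each level is an upper bound of its counting error alone.

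The identity of the cells was checked first. Of 8 mESC markers, 7 stood above every one of the 9 genes per kilobase, from Zfp42 at 519.5 to Esrrb at 3817 normalised counts per kilobase, and only Dppa4 at 123 lay lower. In such bulk RNA, fewer cells of a type and less RNA per cell cannot be told apart. Markers of cells that also use some of the 9 genes had mixed levels. For neural progenitors, which use Nes, Sox3 and Pou3f1, the levels of 5 markers found ran from 0.257 for Olig2 to 41.2 for Sox1, and Fabp7 was not among the genes of the table. For neural crest, which uses Foxd3, 4 markers ran from 0.00914 for Pax3 to 10.7 for Snai2, and for paraxial mesoderm, which uses Tcf15, 4 markers ran from 0.681 for Msgn1 to 38.2 for Tbx6. Of 6 feeder fibroblast markers, Postn and Twist2 were not found. Col3a1 was at 0.00948 and Col1a2 at 0.0554, although Col1a1 was at 17.5 and Thy1 at 64.8. Of 6 trophectoderm and epithelial markers, Elf5 at 0.192 and Cdx2 at 0.659 were lowest, followed by Krt8 at 12.5 and Epcam at 116. The trophectoderm regulator Tfap2c at 460.3 and the epithelial gene Cdh1 at 1291 stood above all 9 genes. Of 6 primitive endoderm markers the highest was Lama1 at 261 and the lowest Sox17 at 2.13. The part of any such cells in the levels below was not tested.

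The promoters of the genes differ widely in CpG content, which is shown by the sequences themselves. RefSeq windows on GRCm38.p6 were found for 5 of the 9 genes, Otx2, Sall2, Pim2, Nes and Foxd3. Printed below are the 250 bases before the start, 5′ to 3′ on the strand of the gene, with each CpG in capitals. They show both ends of the range, Sall2 without a single CpG against Pim2 and Foxd3 with many, and a pair of the 4 Otx2 starts that differ from each other.
Otx2 start 1, chr14:48667645-48667894, minus strand: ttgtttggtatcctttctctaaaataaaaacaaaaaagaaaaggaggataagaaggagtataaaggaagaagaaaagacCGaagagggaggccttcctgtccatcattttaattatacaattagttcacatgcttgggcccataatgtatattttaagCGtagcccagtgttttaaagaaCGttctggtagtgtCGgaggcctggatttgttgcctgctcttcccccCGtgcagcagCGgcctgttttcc
Otx2 start 3, chr14:48665110-48665359, minus strand: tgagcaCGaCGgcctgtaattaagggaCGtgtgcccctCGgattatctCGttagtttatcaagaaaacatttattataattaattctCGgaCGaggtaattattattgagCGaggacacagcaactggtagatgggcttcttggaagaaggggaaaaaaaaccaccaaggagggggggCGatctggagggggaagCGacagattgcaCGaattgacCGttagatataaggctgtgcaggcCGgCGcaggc
Sall2 start 1, chr14:52328671-52328920, minus strand: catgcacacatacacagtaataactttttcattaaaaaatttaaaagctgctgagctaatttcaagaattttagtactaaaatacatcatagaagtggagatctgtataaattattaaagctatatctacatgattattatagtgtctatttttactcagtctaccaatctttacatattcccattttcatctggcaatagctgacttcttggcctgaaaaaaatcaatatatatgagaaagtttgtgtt
Pim2, chrX:7878056-7878305, plus strand: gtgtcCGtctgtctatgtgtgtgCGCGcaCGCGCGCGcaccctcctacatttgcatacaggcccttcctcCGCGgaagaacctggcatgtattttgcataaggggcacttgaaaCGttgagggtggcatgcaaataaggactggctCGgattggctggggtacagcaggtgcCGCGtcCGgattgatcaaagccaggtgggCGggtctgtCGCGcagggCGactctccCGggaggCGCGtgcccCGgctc
Foxd3, chr4:99656049-99656298, plus strand: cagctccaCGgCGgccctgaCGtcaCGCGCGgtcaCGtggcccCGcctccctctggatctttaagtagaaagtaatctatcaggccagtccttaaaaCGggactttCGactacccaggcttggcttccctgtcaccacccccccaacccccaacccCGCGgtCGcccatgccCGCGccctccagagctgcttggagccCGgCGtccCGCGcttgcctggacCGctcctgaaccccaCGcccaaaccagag

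Counted over the full window of 300 bases, which adds the first 50 bases after the start, the Pim2 promoter held 31 CpG and Foxd3 held 25. These counts exceeded those of 89.4% and 81.6% of the 32851 windows in the RefSeq table, whose median is 7. Nes followed with 18 CpG, above 70.3% of the windows. Otx2 held 6 at its first start, which coincides with the end of the gene in the deposited table, and 8, 16 and 11 at the next starts in order along the gene. Sall2 held 1 CpG at its first start, above 5.43% of the windows, and 10 at its second start, which lies 12439 bases from the gene's deposited 5′ end. The observed number of CpG relative to that given by base composition was 1.06 for Pim2, 0.793 for Foxd3, 0.702 for Nes, 0.463 for the first Otx2 start and 0.146 for the first Sall2 start. Thus, 3 of 5 genes had a nearest promoter above the median CpG count. The nearest promoters of Otx2 and Sall2, both transcribed from chromosome 14, were below it, but every other start of these genes was above it. Which starts the cells use was not tested.

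**Figure D1:**
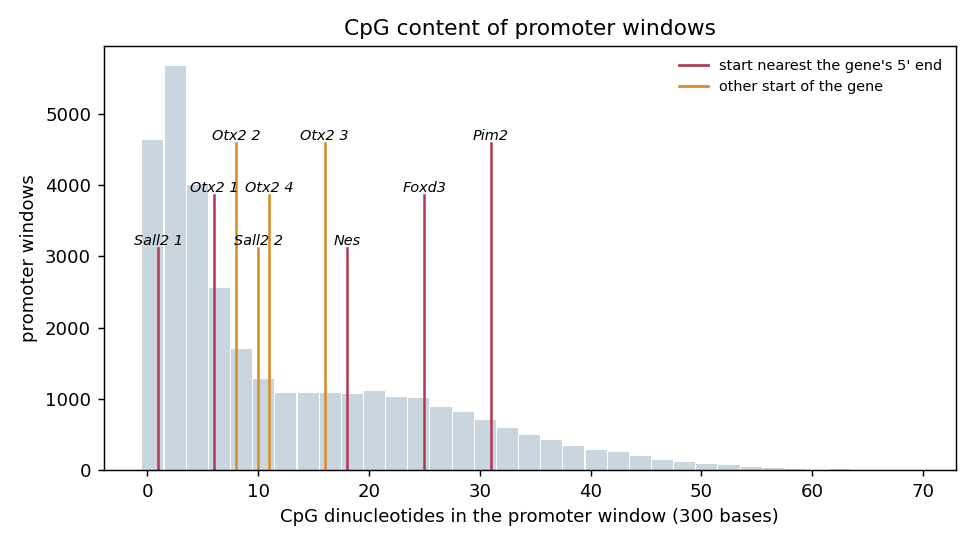
Number of CpG dinucleotides in promoter windows of 300 bases (horizontal axis) against the number of RefSeq windows with that many (vertical axis), with a labelled line for each window of the 5 genes found, numbered in the order of the starts where a gene has several. Pim2 at 31 and Foxd3 at 25 lie in the CpG-rich tail, and the first start of Sall2 at 1 lies in the CpG-poor peak. The first start of Otx2 at 6 lies past that peak, just below the median of 7.

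The windows were also searched on both strands for short motifs of factors related to these genes. TAATCC, the motif of bicoid-class homeodomain proteins such as OTX2, occurred in the third Otx2 window, 211 bases before that start on the reverse strand, and in none of the other 8 windows of these genes. It is present in 7.06% of all windows. ATGCAAAT, the octamer bound by POU proteins, occurred in the Pim2 window on both strands, 123 and 202 bases before the start, and is present in 1.74% of all windows. Neither CATTGT, a SOX motif, nor AACCGGTT, a grainyhead-like motif, occurred in any of the 9 windows, against 12.6% and 0.146% of all windows. A match is a run of letters and not a measured binding site.

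Next, the levels of the 9 genes were compared per kilobase of merged exons. Where the longest transcript or the coding bases are given instead, the same mean was divided by that length. The mean is not limited to coding reads, so a gene with long untranslated parts rises more with the coding length. The order was Foxd3, Pim2, Tcf15, Otx2, Sall2, Grhl2, Pou3f1, Nes and Sox3, and the highest level was 43.9 times the lowest. The median of the 9 genes was 43.9 normalised counts per kilobase, beside 24.6 for all 16912 protein-coding genes ranked. Genes missing from the deposited table are not among these, so each share of protein-coding genes below leaves them out. Of the 9 genes, 5 lay above that median gene and 4 below it. Among the 12395 protein-coding genes with a mean of at least 10, a setting that leaves out low genes, 3 lay above the median gene, and Otx2 and Sall2 changed sides.

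Foxd3 (chr4:99656299-99658622, plus strand) encodes a forkhead factor that epiblast cells and neural crest need. Its mean was 635 ± 8.54 normalised counts, which came from at least 5528 and at most 11228 reads. Over its single exon of 2324 bases this was 273 ± 3.67 per kilobase, above 89.0% of protein-coding genes.

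Pim2 (chrX:7878262-7883432, plus strand) encodes a serine/threonine kinase that promotes cell survival. Its mean was 590.15 ± 8.23 normalised counts, close to that of Foxd3, and with 2795 exonic bases its level was 211 ± 2.95 per kilobase. The order of these 2 genes depends on the length used. With the longest transcript, of 2045 bases, Pim2 was at 289 per kilobase and Foxd3 stayed at 273, and with coding bases Pim2 was at 524 and Foxd3 at 451.

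Tcf15 (chr2:152143561-152149097, plus strand) encodes a basic helix-loop-helix factor of early epiblast and paraxial mesoderm. Its mean of 146 ± 4.09 normalised counts was below that of Otx2, yet its exons span only 980 bases. Its level per kilobase was therefore 149 ± 4.18, below Pim2 and above Otx2.

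Otx2 (chr14:48657679-48667644, minus strand) encodes the homeodomain factor that leads the formative transition and later patterns the head. Its mean was 203 ± 4.83 normalised counts, from at least 1766 and at most 3587 reads. Over 4221 exonic bases from 11 annotated transcripts this was 48.0 ± 1.14 per kilobase, above 60.7% of protein-coding genes, or 46.4% of those with a mean of at least 10. Tcf15, the next higher gene, was 3.10 times as high. With the longest Otx2 transcript, of 2592 bases, as the length, the level was 78.2, and with the 891 coding bases 228. Its place as the fourth highest was the same with each of these lengths.

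Sall2 (chr14:52311172-52328762, minus strand) encodes a spalt-like zinc finger factor. With a mean of 239 ± 5.24 normalised counts and 5433 exonic bases, it was at 43.9 ± 0.964 per kilobase. The 95% counting intervals of Otx2 and Sall2 overlapped narrowly, from 45.8 to 50.3 and from 42.1 to 45.8, and this was the only overlap among the 8 pairs of neighbours in the order. On the longest transcript the distance between the pair was wider, 78.2 for Otx2 and 46.4 for Sall2.

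Grhl2 (chr15:37233036-37363569, plus strand) encodes a grainyhead-like factor that opens enhancers of epithelial genes. Its mean of 191 ± 4.68 normalised counts was near that of Otx2, but its 8613 exonic bases brought the level to 22.1 ± 0.543 per kilobase, above 48.4% of protein-coding genes, or 29.7% of those with a mean of at least 10. With the mean divided by coding bases, Grhl2 at 96.7 per kilobase stood above Sall2 at 77.5, so their order also depends on the length.

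Pou3f1 (chr4:124656807-124660655, plus strand) encodes the POU factor OCT6 of epiblast and Schwann cells. Its mean was 63.4 ± 2.70 normalised counts and its level 16.5 ± 0.701 per kilobase, above 43.8% of protein-coding genes, or 23.3% of those with a mean of at least 10.

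Nes (chr3:87971078-87980451, plus strand) encodes the intermediate filament protein nestin, best known from neural progenitors. Its mean of 73.5 ± 2.90 normalised counts was higher than that of Pou3f1, but per kilobase the order was the opposite, with Nes at 11.5 ± 0.453. This was above 39.3% of protein-coding genes, or 17.3% of those with a mean of at least 10.

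Sox3 (chrX:60891366-60893430, minus strand) encodes a factor of the SOXB1 group, which also holds SOX2. It was the lowest of the genes, with a mean of 12.9 ± 1.21 normalised counts from at least 111 and at most 228 reads. Its level was 6.23 ± 0.588 per kilobase, above 32.8% of protein-coding genes, or 9.04% of those with a mean of at least 10, and its counting error of up to 9.45% was the largest of the 9 genes. For the others this error lay between 1.34% for Foxd3 and 4.25% for Pou3f1.

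**Figure D2:**
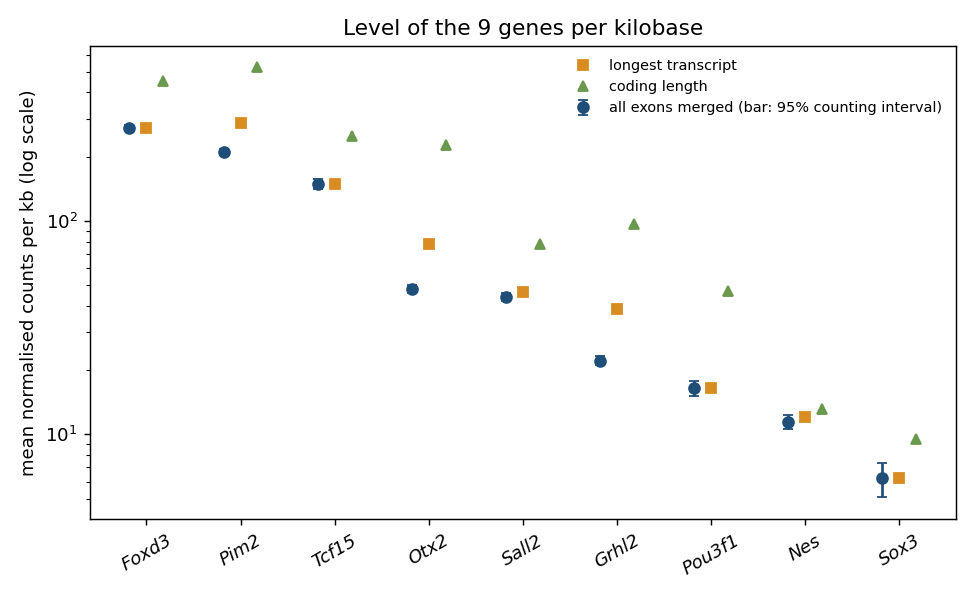
Level of each gene in normalised counts per kilobase (log scale) with the length taken as merged exons, longest transcript or coding bases, the bars giving the 95% counting interval of the first. Foxd3 and Pim2 exchange places with the longest transcript and with the coding length, Sall2 and Grhl2 with the coding length, and Sox3 is lowest with each.

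The genes also differ in structure. Foxd3, Pou3f1 and Sox3, that is 3 of 9, consist of a single exon block, as do 4.53% of the protein-coding genes ranked. Tcf15 has 2 exon blocks, Sall2 has 3 and Nes has 4. At the other end, Grhl2 has 17, Otx2 has 7 and Pim2 has 6. On the X chromosome lie Pim2 and Sox3, on chromosome 14 Otx2 and Sall2, and on chromosome 4 Foxd3 and Pou3f1.

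Some reads could belong to genes on the opposite strand, because no source says that strand was used in counting. Otx2os1 runs opposite to Otx2 over 5112 bases of its span and had a mean of 1.06 normalised counts, against 203 for Otx2. The antisense gene Gm2164 shares 363 bases with Pou3f1 and had 0.623. Stretches of 50 bases, the read length, were compared between the transcripts of each gene and those of every other gene. A read from a shared stretch cannot be given to a single gene by its sequence alone. How such reads were counted was not tested. Shared stretches made up 7.42% of those of Pou3f1, shared with Gm2164, and 2.75% of those of Otx2, shared with Otx2os1 and Gm49154. The share was 2.59% for Foxd3, 1.57% for Pim2, 0.937% for Grhl2 and 0% for Sall2, Sox3, Nes and Tcf15. The stretches of Grhl2 were shared with 64 other genes, which were not checked for its relatives. Grhl2 aside, Foxd3 was the only gene that shared stretches with a relative named below, Foxd4.

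The genes were then set beside relatives of the same family to see which family member was most abundant. Otx2, Pou3f1, Tcf15 and Foxd3 were the highest of the family genes examined. Otx2 was 40.0 times as high per kilobase as Otx1, which was at 1.2 ± 0.159, and Crx was at 0.266 ± 0.0983. Thus, Otx2 made up 97.0% of the summed level of these 3 homeobox genes. Pou3f1 made up 94.5% of its group, in which Pou3f2 was at 0.310, Pou3f3 at 0.216 and Pou3f4 at 0.430 per kilobase. For Foxd3 the share was 99.0%, with Foxd1, Foxd2 and Foxd4 between 0.546 and 1.18. Tcf15 was 6.72 times as high as Msc, at 22.2, and far above Scx, at 0.799.

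In the remaining families another gene was higher. Sox2, the SOXB1 factor of the core pluripotency network, was at 1527 ± 9.23 per kilobase and thus 245 times as high as Sox3, and even the neural gene Sox1, at 41.2 ± 0.989, was 6.61 times as high. Sall1 at 2339 and Sall4 at 1954 exceeded Sall2 by 53.2 and 44.5 times, whereas Sall3 at 85.6 was 1.95 times as high. Vim, the filament protein gene vimentin, was 176 times as high as Nes. Grhl3 at 483 ± 4.46 was 21.8 times as high as Grhl2, and Grhl1 at 14.2 was lower than Grhl2. Both relatives of Pim2 were higher, Pim1 by 1.53 times and Pim3 by 3.05 times. Of 20 relatives, 9 stood above the gene they were compared with, and no relative changed sides with the longest transcript or the coding length. The sizes did depend on the length by which the mean was divided. With the coding length Vim was 522 times as high as Nes and Sox1 17.8 times as high as Sox3. Grhl3 was then 7.70 times as high as Grhl2 and Tcf15 2.81 times as high as Msc. With the longest transcript Otx2 was 63.4 times as high as Otx1, Vim 273 times as high as Nes and Grhl3 12.5 times as high as Grhl2. These differences between genes are larger than the counting error, but their spread between lines was not measured.

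**Figure D3:**
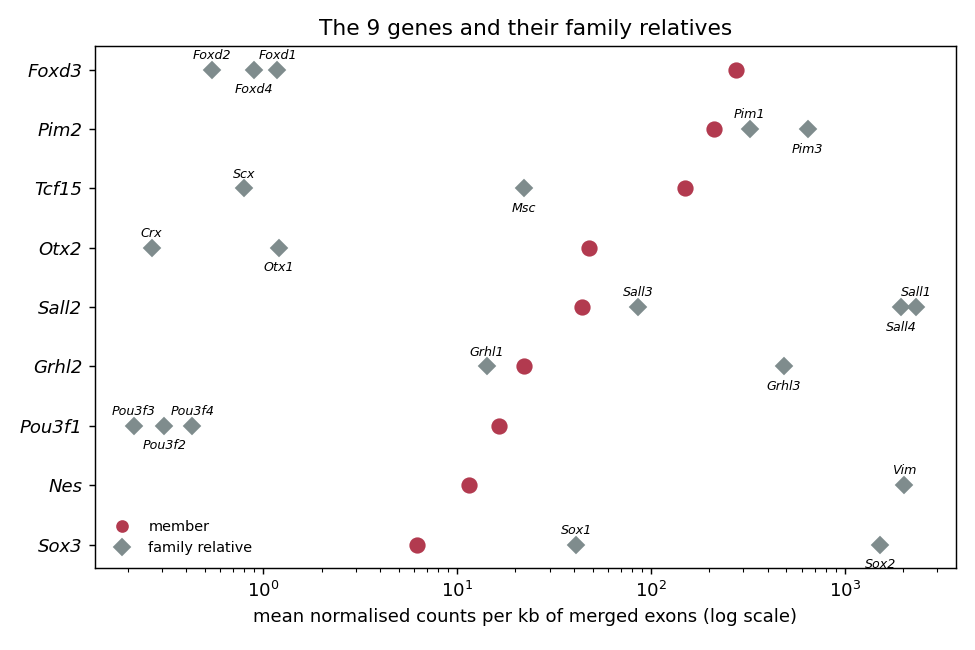
Level per kilobase of merged exons (log scale) of each of the 9 genes (circles) and its family relatives (diamonds), 1 row per family. Foxd3, Tcf15, Otx2 and Pou3f1 lie to the right of their relatives, whereas Sox2, Vim, Sall1, Sall4 and Grhl3 lie far to the right of Sox3, Nes, Sall2 and Grhl2.

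Finally, the levels were placed beside lists of pluripotency genes. The 14 naive genes had a median of 1289 normalised counts per kilobase, and 13 of them exceeded Foxd3, the highest of the 9 genes. The exception was Dppa3, a maternal factor gene, at 8.16. The core genes Pou5f1 and Sox2 were at 894 and 1527. Among 18 further genes of the formative state the median was 95.7, and the range was wide, from 0.336 for the growth factor gene Fgf5 to 5903 for Utf1. Of these 18, 8 lay above Foxd3 and 2, Fgf5 and Sox11, lay below Sox3. Fgf5, often used with Otx2 as a marker of the formative state, thus had 0.840 normalised counts where Otx2 had 203. The high end of the formative list holds genes that naive cells express too, such as Utf1, Sall4 and Etv4. The lists also overlap. Tdgf1 here, Nanog, Zfp42, Esrrb and Dppa5a of the naive list, and the core genes Pou5f1 and Sox2 were also mESC markers above. The 9 genes together lay between 6.23 and 273 per kilobase, within the range of the formative list. That range is too wide to set them apart. All 9 also lay within the range of the trophectoderm and epithelial markers, and 8 within that of the naive list. Of the naive genes, Dppa3 alone fell inside the range of the 9 genes, between Sox3 and Nes.

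**Figure D4:**
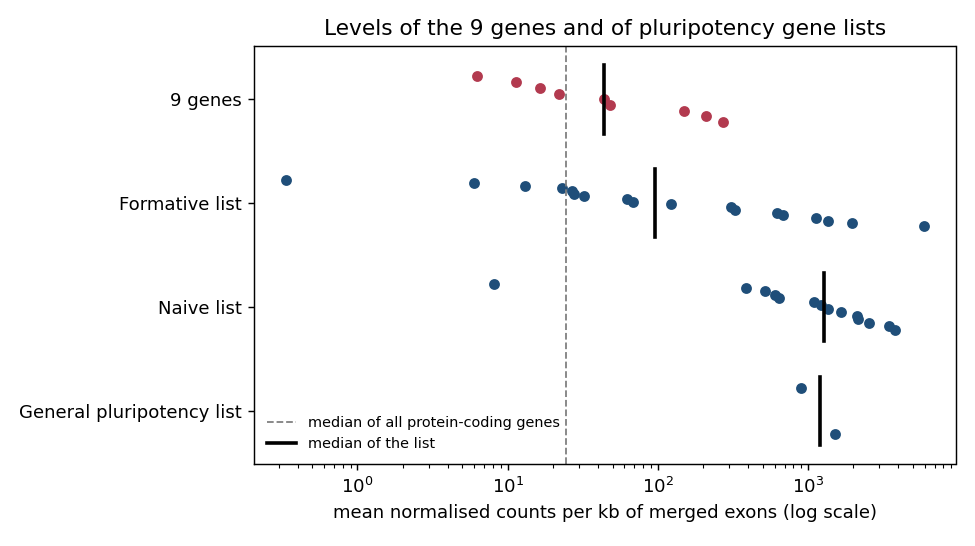
Level per kilobase of merged exons (log scale) of the 9 genes and of the formative, naive and general pluripotency lists, each point 1 gene, the black bar the median of the list and the dashed line the median of protein-coding genes at 24.6. The 9 genes have a median of 43.9, below 95.7 for the formative and 1289 for the naive list.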

How the data were processed

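Per the labels, the authors used STAR 2.5.3a on GRCm38.p6 and DESeq2 1.20.0: single-end reads of RNA depleted of ribosomal RNA were aligned, counted for each gene and normalised. The only measurement used from the deposited table is the authors' mean normalised signal over the libraries of their fit, in which counts are divided by size factors and not by length. The table also holds the authors' log2 fold change of D2018A against WT with its standard error, statistic and p-values. These columns are the authors' own comparison and were not used. The planned edgeR test on counts per line was not run, because the table has no values per library.

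A step was a mean under 0.5 that 30 or more genes share and that no sum of smaller steps gives, a search tested on simulated data. The highest step times the mean bounds the counting variance, reads lie between the mean divided by the highest and by the lowest step, and 95% intervals are 1.96 errors wide on each side. These cover counting error only.

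Lengths came from GENCODE vM21 for 19330 of 19429 genes, and percentiles from the 16912 protein-coding genes of the deposited table with a signal and a length. Promoters are RefSeq windows of 250 bases before to 50 after each start. The genes and lists were chosen with earlier results of these data known. Named were the 9 genes, relatives above them, and the extremes of each list. Other relatives and markers were named after their values were seen. Python 3.11.15, numpy 2.4.6 and pandas 2.3.3 were used.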

Additional observations from a re-analysis of the deposited data

How the results depend on the processing

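With the longest transcript in place of merged exons the median level of the 9 genes was 46.4 normalised counts per kilobase and with coding bases 96.7, against 43.9, since a shorter length raises a level per kilobase. The number of genes above the median gene was 5 among protein-coding genes, 6 with no limit on biotype and 3 among protein-coding genes with a mean of at least 10, where the genes ranked are fewer and higher and Otx2 (46.4%) and Sall2 (44.4%) fell below the median gene. Counted only over the 250 bases before the start, the CpG ratio moved by over 0.1 for Sall2, to 0, and for Pim2, to 0.924. No paired analysis was possible because the table holds a mean over libraries, and for the same reason no replicate could be left out. Depth limits Sox3 most, and the spread between lines was not measured for any gene.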
